A study of Anthurium andraeanum with 18 samples.

Results

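The comparison described here asks which genes of Anthurium andraeanum leaves answered a day/night regime of 38/33 °C differently in 2 plant materials, named MH and Ken in the sample titles. It is the contrast (MH 38 minus MH control) minus (Ken 38 minus Ken control), fitted in 1 model of 12 of the series' 18 RNA sequencing libraries. Of 158,487 assembled genes, 52,521 had enough counts to be tested, 25,982 of these carry a description, and 7,305 had a response that differed between the materials. Anthurium andraeanum is an ornamental aroid grown for its coloured spathe. Whether MH and Ken are cultivars, clones or crosses is not stated in the labels.

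The 12 libraries form 4 groups of 3. Ken control and MH control are leaves of full-flowering plants kept at 25 °C. Ken 38 and MH 38 are leaves of plants moved from 3 days at 25 °C to 3 days at 38/33 °C, and days and nights lasted 12 h each. The labels name no altered gene and no applied chemical. The replicates are titled biological, without a statement that each came from its own plant, and the p-values cover only the spread among these libraries. The labels give neither the hour nor the day on which control leaves were taken, so age and hour of sampling can differ between groups, which touches clock genes most. The 6 libraries at 40/35 °C were not compared.

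Plants meet heat with heat stress transcription factors, which switch on genes for chaperones. Small heat shock proteins hold unfolding proteins, HSP70 with its DnaJ partners and HSP90 refold them, HSP100 and Clp proteins pull aggregates apart, and proteasomes and autophagy remove what cannot be saved. In leaves, heat also lowers transcripts for photosynthesis, and disease resistance, sugar transport and hormone signalling are known to respond to warm conditions.

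Expression is given as TPM, transcript abundance scaled by gene length and by library. A response is a log2 change from 25 to 38/33 °C, and a response difference is the response of MH minus that of Ken, as the estimate ± SE of edgeR's quasi-likelihood model. Calls were made at an adjusted p below 0.05 (Benjamini-Hochberg) over all 52,521 tested genes, and "rose", "fell" and "response higher" or "lower" are used only of called genes. The model scales libraries with TMM factors, which assume that most genes keep their level. These factors were 0.759 to 0.809 in the 6 control libraries and 1.08 to 1.45 in the 6 heated ones. Scaling by library totals instead adds a median of 0.76 to every response in MH and 0.57 in Ken, but only 0.20 to the difference between them. Rises and falls within 1 material therefore depend on the scaling more than the response differences do, and the value with totals is given wherever it loses or turns a call named here. TPM follows the totals, so a TPM level can stay level where the model gives a fall.

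One library stood apart before any gene was considered. Principal component 1 of the tested genes held 44.5% of the variance and separated the temperatures, with the controls at -217 to -160, Ken 38 at 122 to 153, and MH 38 at 275 and 292 for replicates 1 and 2. MH 38 replicate 3 lay at 137, within the range of Ken 38 on that component. Principal component 2 held 29.9% of the variance and separated the materials. On it MH 38 replicate 3 lay at 138, beside replicates 1 and 2 at 143 and 139, while Ken 38 lay at -200 to -189. The biological coefficient of variation was 0.544 within MH 38, 0.352 within MH control, 0.216 within Ken 38 and 0.193 within Ken control. Without MH 38 replicate 3 the test called 15,929 genes, 7,340 with the higher and 8,589 with the lower response in MH. Of the 7,305 calls, 99.5% were among them in the same direction. Both fits share all the other libraries, which largely fixed that overlap, so it is no measure of robustness. The MH 38 libraries were also compared by how far their response lay from the mean Ken response. In 70.5% of the called genes replicate 3 lay nearer to it than the mean of replicates 1 and 2 did. These genes were called with the same libraries. No such share was computed for replicate 1 or 2, or over all tested genes. The 70.5% therefore cannot show how unusual replicate 3 is. Leaving out Ken 38 replicate 1 gave 4,592 calls. Counts of gene groups are therefore given with and without MH 38 replicate 3.

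**Figure D1:**
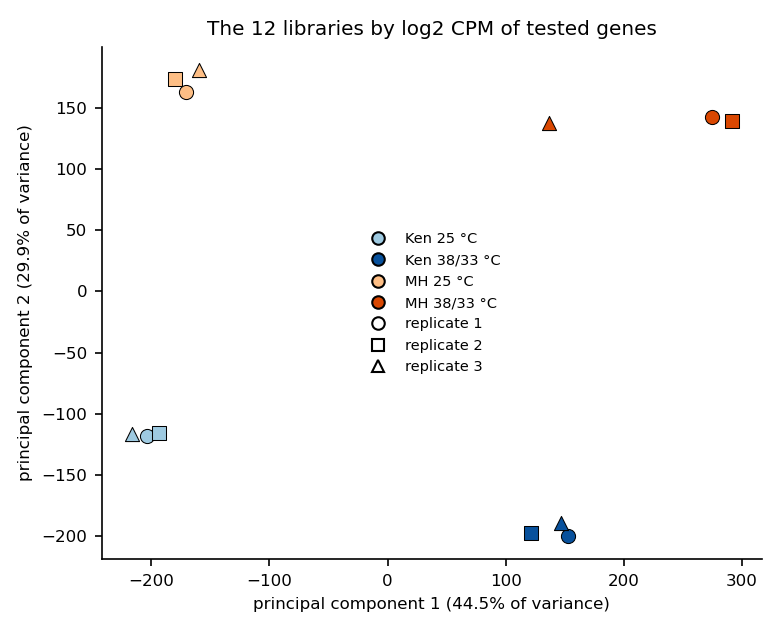
Principal components 1 and 2 of the log2 CPM, counts scaled by library size, of 52,521 tested genes. Each point is 1 library, coloured by group, with the shape giving the replicate. MH 38/33 °C replicate 3, the orange triangle at 137 on component 1, lies apart from replicates 1 and 2 of its group at 275 and 292.

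The leaf label held in the controls, where genes for light harvesting, photosystems, the Calvin cycle and Rubisco together made up 14.8 to 17.3% of all TPM in Ken and 19.4 to 22.2% in MH. Their share at 38/33 °C was 3.17 to 3.74% in Ken and 0.722 to 5.05% in MH. Markers of other leaf tissues were few: of 25 tested xylem and phloem genes 1 (4%) had a higher and 1 (4%) a lower response in MH, against 10.9% and 8.02% of described genes. They were 6 (24%) and 6 (24%) without MH 38 replicate 3, against 18.8% and 22.2% of described genes. Higher calls of xylem and phloem markers were 0 without any 1 of the other 11 libraries except MH control replicate 2 and 3 and MH 38 replicate 1, and 2 to 4 without MH control replicate 2 or 3. Lower calls of xylem and phloem markers were 0 without any 1 of the other 11 libraries except MH control replicate 1. In bulk leaf RNA, fewer cells of a type and less RNA per cell cannot be told apart. Among 206 transcripts whose only match is an animal protein, 31 were tested and 0 were called. Higher calls of animal-named transcripts, 0 with edgeR, were 1 with DESeq2, 0 with voom and 2 at an unadjusted p below 0.05. Lower calls of animal-named transcripts, 0 with edgeR, were 0 with DESeq2, 0 with voom and 0 at an unadjusted p below 0.05. Their summed levels were 238, 112 and 203 TPM in Ken control, 132, 140.2 and 156 TPM in Ken 38, 35.7, 53.8 and 6.51 TPM in MH control and 9.13, 29.4 and 55.9 TPM in MH 38. That list of transcripts was drawn up after the table had been read, and its part in any result was not tested.

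The response to 38/33 °C differed between MH and Ken in 7,305 of 52,521 genes (13.9%). The MH response was higher in 4,068 genes (7.75%) and lower in 3,237 (6.16%), and 6,391 of the calls were at least 2-fold. The share of higher calls was 55.7%, against 67.0% with library totals and 46.1% without MH 38 replicate 3, so the balance of directions is not fixed by these data. Among described genes the counts were 2,840 higher (10.9%) and 2,083 lower (8.02%), and without MH 38 replicate 3 they were 4,888 higher (18.8%) and 5,764 lower (22.2%). For each gene list below, the percentage after a count is the share of its tested members, and compares with 10.9% higher and 8.02% lower, or with 18.8% and 22.2% where MH 38 replicate 3 is left out. A share near these says nothing particular about a list. For each list, the counts without any other library are given where they moved by over 1.5 times. Over the described genes themselves this was so without Ken 38 replicate 1 (1,815 higher and 1,379 lower) and without Ken 38 replicate 2 (1,344 lower). The median response difference was 0.07 over all tested genes and 0.05 over described genes, 0.25 over described genes with library totals and -0.06 over described genes without MH 38 replicate 3.

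Each material alone changed far more widely than the difference between them. MH 38 differed from MH control in 26,588 genes (50.6%), 14,921 higher and 11,667 lower, and Ken 38 differed from Ken control in 23,927 (45.6%), 12,642 higher and 11,285 lower. With library totals the rises made up 80.1% of the MH calls in place of 56.1%, and 73.7% of the Ken calls in place of 52.8%. The materials differed from each other in 14,803 genes (28.2%) at 25 °C and in 19,104 genes (36.4%) at 38/33 °C. Across the 25,982 described genes the responses of MH and Ken had a Pearson correlation of 0.63, and 74.1% had the same sign. This is a description across genes, which are not independent replicates, and the libraries of MH and Ken are separate. Where a described gene was called in both materials (9,343 genes) the correlation was 0.843 and the sign agreed in 93.9%. That choice keeps larger responses, with a median size of 1.74 in Ken and 1.69 in MH on the log2 scale. Its values therefore show no closer agreement than those over all described genes. Over all described genes the median size of the response was 1.04 on the log2 scale in both materials. Without MH 38 replicate 3 it was 1.22 in MH and 1.04 in Ken.

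**Figure D2:**
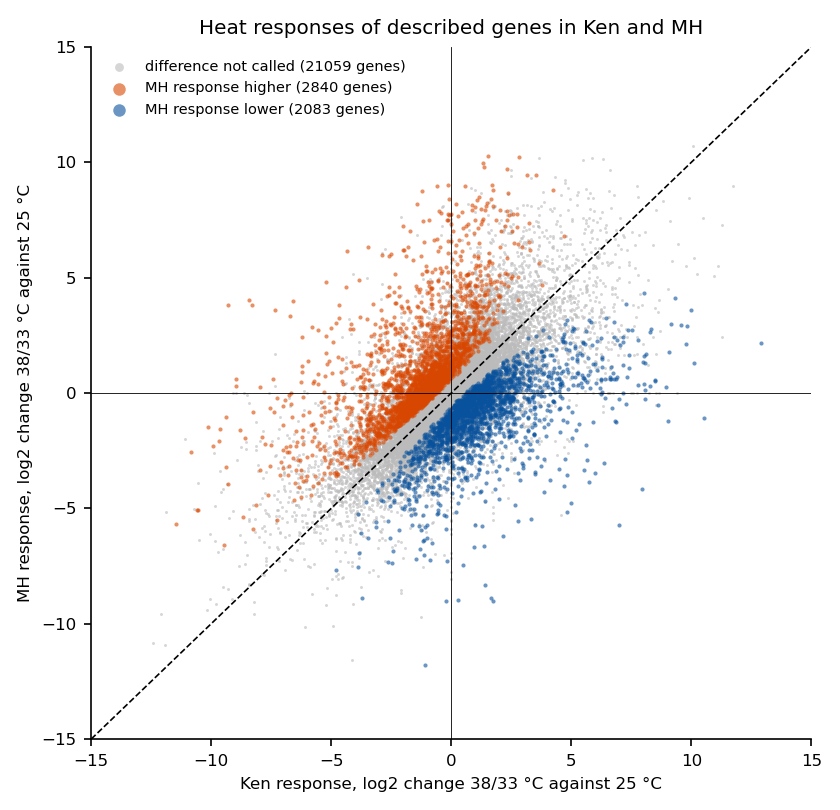
Response to 38/33 °C of 25,982 described genes, in log2 units, in Ken (horizontal) and MH (vertical). Orange points are the 2,840 genes with a higher and blue points the 2,083 with a lower response in MH, grey points were not called, and the dashed line marks equal responses. Of the orange points 310 rose in MH and fell in Ken, and of the blue points 260 fell in MH and rose in Ken.

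Opposite movement called in both materials was the smaller share of the calls. Of the 2,840 described genes with the higher response in MH, 921 fell in Ken and were not called in MH, 761 rose in MH and were not called in Ken, 645 fell in both and less in MH, 185 rose in both and more in MH, and 310 rose in MH while they fell in Ken. Of the 2,083 with the lower response in MH, 725 rose in Ken and were not called in MH, 636 fell in MH and were not called in Ken, 238 fell in both, 211 rose in both, and 260 fell in MH while they rose in Ken. With library totals the opposite pairs were 492 and 179. A response that is called in 1 material and not in the other is not by itself a difference, and here the difference itself was the test.

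Levels before and after heat show where the difference came from. Among the described genes with the higher MH response, 1,099 were not called between materials at 25 °C and higher in MH at 38/33 °C, 1,034 were lower in MH at 25 °C and not called at 38/33 °C, and 425 were lower in MH at 25 °C and higher in MH at 38/33 °C. Among those with the lower MH response, 987 became lower in MH at 38/33 °C without a call at 25 °C, 583 were higher in MH at 25 °C only, and 283 crossed from higher to lower. A gene that was not called at one temperature is not shown to be equal there.

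**Figure D3:**
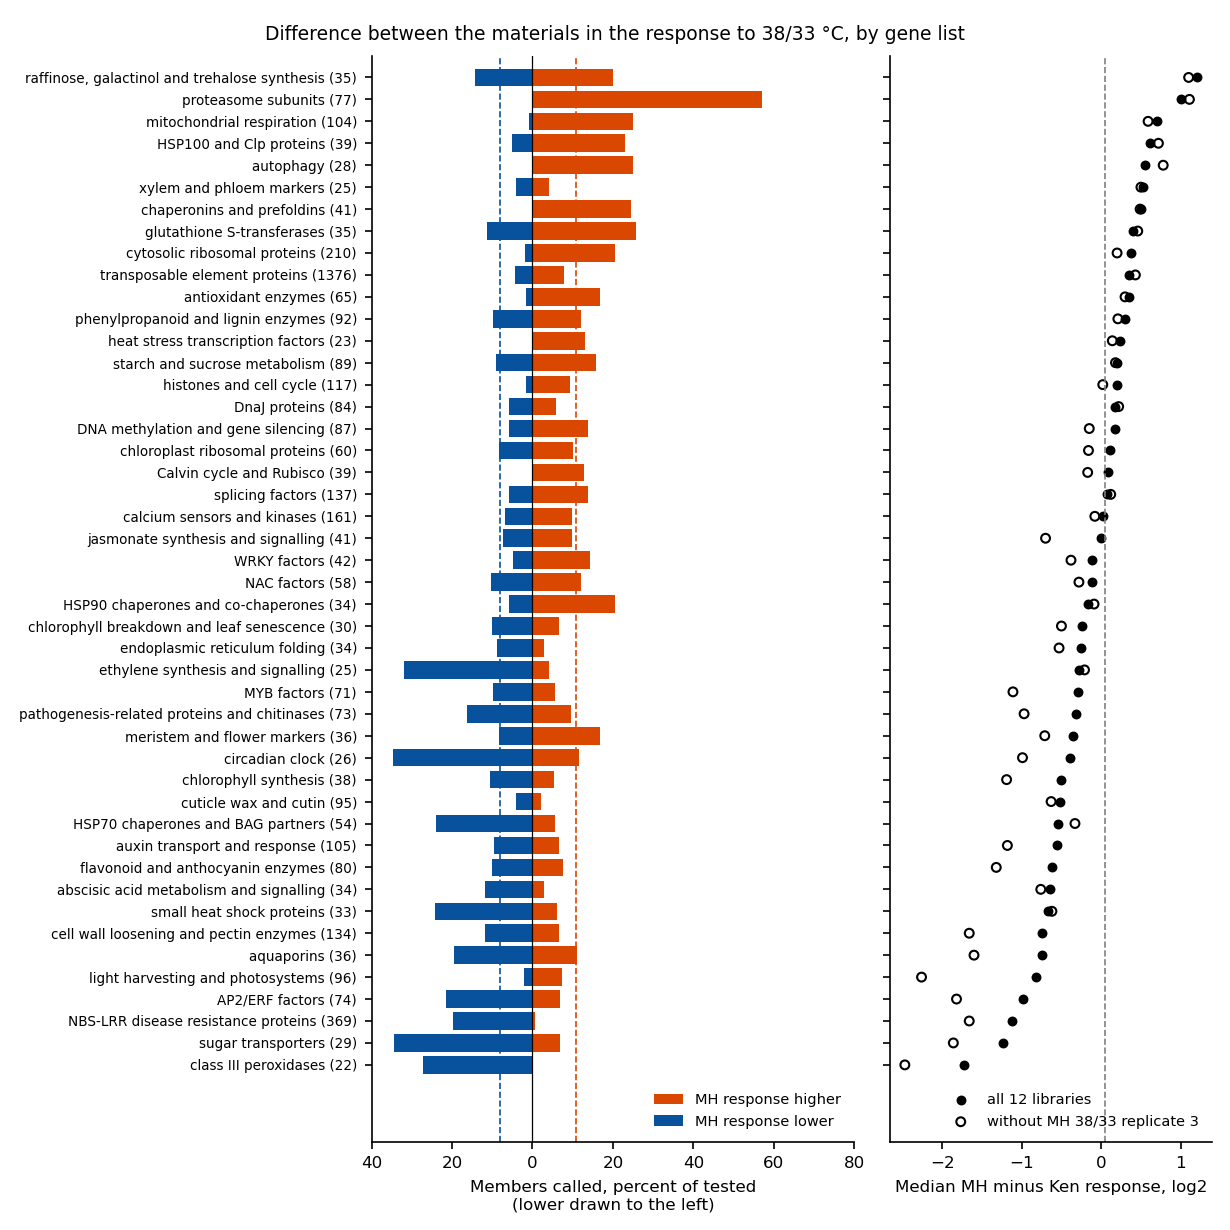
The 46 gene lists with at least 20 tested members (number in brackets), ordered by the median response difference. Left, the percent of tested members with a higher (orange) or lower (blue) response in MH, with dashed lines at the 10.9% and 8.02% of all described genes. Right, the median response difference with all 12 libraries (filled) and without MH 38/33 °C replicate 3 (open), with a dashed line at the 0.05 of described genes. The share of higher calls is largest in proteasome subunits, and that of lower calls in circadian clock, sugar transporter and ethylene genes. With all 12 libraries the median is highest for raffinose and related genes, followed by proteasome subunits. It is lowest for class III peroxidases, sugar transporters and NBS-LRR proteins.

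Transcripts of the proteasome, the protease complex that degrades proteins tagged with ubiquitin, responded more in MH. Of 77 tested subunit genes, 44 (57.1%) had a higher response in MH and 0 a lower one, against 10.9% and 8.02% of described genes, and 67 of the 77 differences were above 0. The median difference was 1, and without MH 38 replicate 3 there were 55 (71.4%) higher and 2 (2.6%) lower. Fragments of one gene can count more than once in a list. With 1 gene per description, 30 of 46 were higher and 0 lower. Summed over the 93 subunit genes in the table, the levels were 2945, 2827 and 2854 TPM in Ken control, 2515, 2383 and 2414 TPM in Ken 38, 2585, 2735 and 2431 TPM in MH control and 5209, 6023 and 3769 TPM in MH 38. All 3 heated MH libraries exceeded every other library, and all 3 heated Ken libraries lay below their controls. With TMM scaling 27 genes rose and 13 fell in MH while 8 rose and 44 fell in Ken, and with library totals 59 rose and 5 fell in MH while 12 rose and 19 fell in Ken. Lower calls of proteasome subunits, 0 with edgeR, were 1 with DESeq2, 2 with voom and 2 at an unadjusted p below 0.05. The balance in Ken thus depends on the scaling, while the median response difference was 1.21 with library totals.

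Single subunits were taken after the values were seen, from those with the smallest adjusted p of the list. PAB1 (TRINITY_DN59354_c0_g1), an alpha subunit of the core ring, stood at 33.8, 35.1 and 34 TPM in Ken control and 26.1, 23.5 and 26.4 TPM in Ken 38, against 36.7, 47.8 and 37.8 TPM in MH control and 134, 165 and 115 TPM in MH 38. Its difference was 1.93 ± 0.22, adjusted p = 0.000163, and all 3 heated MH libraries lay above every other library. PBD1 (TRINITY_DN43551_c0_g4), a beta subunit of the catalytic rings, stood at 91, 73 and 87.8 TPM in Ken control and 71.4, 66.5 and 60.1 TPM in Ken 38, against 53, 61.7 and 48.1 TPM in MH control and 154, 189 and 140 TPM in MH 38, a difference of 1.77 ± 0.22, adjusted p = 0.0003. In PBD1 too heated MH lay above every other library, and heated Ken lay just below Ken control. The Ken responses of -0.8 for PAB1 and -0.8 for PBD1 were -0.22 and -0.23 with library totals and then not called. In autophagy membrane vesicles carry cell contents to the vacuole. Of its genes 7 (25%) of 28 tested genes had a higher and 0 a lower response in MH, and 16 (57.1%) and 1 (3.57%) without MH 38 replicate 3. Lower calls of autophagy genes, 0 with edgeR, were 0 with DESeq2, 1 with voom and 1 at an unadjusted p below 0.05. ATG12 (TRINITY_DN57883_c0_g1), a ubiquitin-like protein of vesicle formation, stood at 35.4, 31 and 33.4 TPM in Ken control and 13.5, 13.9 and 13.5 TPM in Ken 38, against 23.5, 18.2 and 20.7 TPM in MH control and 25.2, 18.4 and 24.5 TPM in MH 38, a difference of 1.35 ± 0.26, adjusted p = 0.00412.

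Heat stress transcription factors gave 3 (13%) higher and 0 lower responses in MH among 23 tested genes, and 6 (26.1%) higher and 1 (4.35%) lower without MH 38 replicate 3, and the first of these shares is near that of described genes. Lower calls of heat stress factors, 0 with edgeR, were 1 with DESeq2, 1 with voom and 2 at an unadjusted p below 0.05, and 1 without MH control replicate 2. HSFA3 (TRINITY_DN52649_c2_g1), a factor known from Arabidopsis to act downstream of DREB2 proteins in heat, stood at 54.9, 55.6 and 39.9 TPM in Ken control and 39.8, 61.4 and 45.2 TPM in Ken 38, against 11.5, 10 and 9.39 TPM in MH control and 101, 125 and 122 TPM in MH 38. The Ken groups overlap, whereas every heated MH library lies above every other library, and the difference was 3.49 ± 0.26, adjusted p = 1.38e-05. DREB2B (TRINITY_DN38333_c2_g3), a member of the AP2/ERF family taken after its values were seen, stood at 7.64, 6.08 and 7.17 TPM in Ken control and 80.3, 72.8 and 72.1 TPM in Ken 38, against 0.37, 0.42 and 0.36 TPM in MH control and 69.4, 57.6 and 27.1 TPM in MH 38. It rose in both materials, from a far lower start in MH, with a difference of 3.37 ± 0.39, adjusted p = 0.000196. An HSFA1 gene (TRINITY_DN51802_c0_g3), of the class of master regulators of the heat response, stood at 8.57, 8.82 and 9.34 TPM in Ken control and 8.77, 8.84 and 7.12 TPM in Ken 38, against 2.69, 2.61 and 2.49 TPM in MH control and 6.46, 7.97 and 7.29 TPM in MH 38, a difference of 1.43 ± 0.28, adjusted p = 0.00514. MH was below Ken at 25 °C and overlapped with it at 38/33 °C, and the Ken response of -0.6 was -0.03 and not called with library totals. The third call is another HSFA1 transcript (TRINITY_DN51802_c0_g1), with a difference of 1.48 ± 0.36, adjusted p = 0.0147. Its identifier differs from that of the first HSFA1 only in its last part, so they may be parts of 1 gene. With 1 gene per description, 2 of 14 heat stress factors were higher and 0 lower.

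Small heat shock proteins keep unfolding proteins soluble. Of 33 tested genes 8 (24.2%) had a lower and 2 (6.06%) a higher response in MH, with a median difference of -0.67. The median was 0.07 without MH control replicate 3, 0.12 with voom and 0.38 without MH control replicate 3 and MH 38 replicate 3 together, so its direction is not fixed by these data. Without MH 38 replicate 3 there were 7 (21.2%) lower and 4 (12.1%) higher calls. Lower calls of small heat shock proteins were 4 to 5 without Ken control replicate 2 or 3, Ken 38 replicate 1, 2 or 3 or MH 38 replicate 2. Their summed level was 4333, 2075 and 2276 TPM in Ken control, 34310, 33670 and 37540 TPM in Ken 38, 4580, 3041 and 16250 TPM in MH control and 42870, 30260 and 27090 TPM in MH 38. Heated libraries of both materials reached a similar level, and MH control replicate 3 stood far above the other controls. HSP17.4B (TRINITY_DN38803_c1_g1), a small heat shock protein of class III, stood at 28.1, 14.5 and 18 TPM in Ken control and 283, 239 and 273 TPM in Ken 38, against 132, 117 and 259 TPM in MH control and 249, 222 and 201 TPM in MH 38. It was high in MH before heat, MH control replicate 3 lay above all 3 MH 38 libraries, and the difference was -3.65 ± 0.41, adjusted p = 0.000196. HSP18.2 (TRINITY_DN55269_c1_g2), of class I, stood at 11.9, 11 and 8.69 TPM in Ken control and 45.6, 40.7 and 46.7 TPM in Ken 38, against 35.7, 22.9 and 45.7 TPM in MH control and 72.1, 50.3 and 40.2 TPM in MH 38, a difference of -1.68 ± 0.28, adjusted p = 0.002. Its MH groups overlap, and the MH response of 0.03 was 0.8 and called as a rise with library totals.

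HSP70 is the central refolding chaperone. Among 54 tested HSP70 and BAG genes 13 (24.1%) had a lower and 3 (5.56%) a higher response in MH, and 18 (33.3%) and 7 (13%) without MH 38 replicate 3. Lower calls of HSP70 and BAG genes were 8 without Ken control replicate 1 or Ken 38 replicate 1 or 2. A heat shock cognate HSP70 (TRINITY_DN54279_c1_g2) stood at 152, 196 and 169 TPM in Ken control and 398, 414 and 461 TPM in Ken 38, against 613, 410.2 and 819.8 TPM in MH control and 382, 348 and 279 TPM in MH 38. It rose in Ken and fell in MH (0.82 and -1.52), a difference of -2.34 ± 0.31, adjusted p = 0.00045. MED37C (TRINITY_DN62961_c1_g2), annotated as a mediator subunit and, in its plant database entry, as an HSP70, stood at 266, 307 and 273 TPM in Ken control and 566, 563 and 640 TPM in Ken 38, against 682, 495 and 913 TPM in MH control and 416, 361 and 277 TPM in MH 38. Here too the heated Ken libraries lay above and the heated MH libraries below their controls, a difference of -2.23 ± 0.29, adjusted p = 0.000467. Both transcripts were higher in MH than in Ken at 25 °C, and reads shared between such similar genes cannot be separated.

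HSP90 genes were divided. Of 34 tested genes 7 (20.6%) had a higher and 2 (5.88%) a lower response in MH. With 1 gene per description, 1 of 16 was higher and 1 lower, so the share of higher calls rests on repeated descriptions. The median difference was -0.16, and -0.44 with 1 gene per description. It was 0.02 with library totals, 0.26 with voom and 0.07 without MH control replicate 3 and MH 38 replicate 3 together. Without MH 38 replicate 3 there were 11 (32.4%) higher and 3 (8.82%) lower. HSP90-6 (TRINITY_DN57096_c1_g1), the mitochondrial member, stood at 9.75, 11.2 and 8.68 TPM in Ken control and 17.8, 17.8 and 20 TPM in Ken 38, against 6.81, 6.14 and 5.37 TPM in MH control and 60.6, 60.2 and 38.4 TPM in MH 38, a difference of 2.03 ± 0.27, adjusted p = 0.000535. A second transcript of the same description (TRINITY_DN56007_c0_g3) stood at 8.23, 9.99 and 8.63 TPM in Ken control and 20.7, 22.7 and 25.2 TPM in Ken 38, against 4.57, 3.88 and 4.52 TPM in MH control and 45.2, 54.2 and 30.6 TPM in MH 38, a difference of 1.74 ± 0.26, adjusted p = 0.000938. In both transcripts MH started below Ken at 25 °C and ended above it at 38/33 °C.

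HSP100 and Clp proteins, among them the chloroplast Clp protease, had 9 (23.1%) higher and 2 (5.13%) lower responses in MH among 39 tested genes, and 16 (41%) and 4 (10.3%) without MH 38 replicate 3. Higher calls of HSP100 and Clp proteins were 5 without Ken control replicate 1 or 3, Ken 38 replicate 1, MH control replicate 2 or MH 38 replicate 1. Lower calls of HSP100 and Clp proteins were 1 without Ken control replicate 2 or 3. The Clp protease adapter named CLPS1 in its plant entry (TRINITY_DN41538_c0_g1), which hands substrates to the protease, stood at 29.7, 22.1 and 30.1 TPM in Ken control and 9.57, 7.91 and 9.33 TPM in Ken 38, against 36.1, 38 and 34.9 TPM in MH control and 62.2, 51.4 and 36.4 TPM in MH 38. The transcript fell in Ken and was not called in MH, a difference of 1.68 ± 0.27, adjusted p = 0.00153. CLPP4 (TRINITY_DN49555_c3_g2), a subunit of the proteolytic core, stood at 66.4, 60.7 and 63.5 TPM in Ken control and 18.7, 18.1 and 19.6 TPM in Ken 38, against 48.2, 41.6 and 45.1 TPM in MH control and 29.6, 32.9 and 27.7 TPM in MH 38, and fell in both materials with a difference of 1.01 ± 0.18, adjusted p = 0.00289.

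Chaperonins and prefoldins, which fold proteins inside a closed barrel or deliver them to it, had 10 (24.4%) higher and 0 lower responses in MH among 41 tested genes. Without MH 38 replicate 3 these were 12 (29.3%) and 3 (7.32%). Lower calls of chaperonins and prefoldins, 0 with edgeR, were 0 with DESeq2, 2 with voom and 1 at an unadjusted p below 0.05. CPN60B1 (TRINITY_DN48683_c0_g1), a chloroplast chaperonin that assembles Rubisco, stood at 33.1, 29.8 and 31.9 TPM in Ken control and 7.47, 7.13 and 10.4 TPM in Ken 38, against 17.4, 23.9 and 17.5 TPM in MH control and 19.6, 15.4 and 11.7 TPM in MH 38. Its Ken level fell, and the difference was 1.42 ± 0.28, adjusted p = 0.00521. Its MH response of -0.98 was -0.21 and not called with library totals. DnaJ proteins, the partners of HSP70, had 5 (5.95%) higher and 5 (5.95%) lower responses in MH among 84 tested genes, and 16 (19%) higher and 15 (17.9%) lower without MH 38 replicate 3, where the share of higher calls is that of described genes to within 1 percentage point. Higher calls of DnaJ proteins were 3 without Ken control replicate 1, and 8 without MH control replicate 1. Lower calls of DnaJ proteins were 3 without any 1 of the other 11 libraries except MH control replicate 2 and 3 and MH 38 replicate 1, and 8 without MH control replicate 2.

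Folding in the endoplasmic reticulum gave 1 (2.94%) higher and 3 (8.82%) lower calls among 34 tested genes, and 5 (14.7%) and 14 (41.2%) without MH 38 replicate 3. Higher calls of endoplasmic reticulum genes were 2 without MH control replicate 3. Lower calls of endoplasmic reticulum genes were 5 without MH control replicate 1. PDIL1-5 (TRINITY_DN48590_c0_g1), a protein disulfide isomerase, stood at 1.33, 1.38 and 1.41 TPM in Ken control and 16.1, 13.3 and 13.8 TPM in Ken 38, against 4.71, 5 and 7.98 TPM in MH control and 19.6, 21.3 and 15.3 TPM in MH 38. It rose in both materials to similar heated levels, from a lower start in Ken, a difference of -1.87 ± 0.3, adjusted p = 0.00151. HRD1 (TRINITY_DN46253_c0_g1), described as a ubiquitin ligase that clears misfolded proteins and in its plant entry only as a zinc finger protein, stood at 23.2, 31.8 and 16.9 TPM in Ken control and 69.4, 60 and 58.4 TPM in Ken 38, against 15.9, 18.5 and 22.6 TPM in MH control and 18.1, 21.6 and 22.3 TPM in MH 38. The MH groups overlap and the heated Ken libraries lie above all others, a difference of -1.22 ± 0.23, adjusted p = 0.00358. Its MH response of -0.56 was 0.21 and not called with library totals.

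Ribosomes make the cell's proteins. Of 210 tested genes for cytosolic ribosomal proteins 43 (20.5%) had a higher and 4 (1.9%) a lower response in MH, and 54 (25.7%) and 19 (9.05%) without MH 38 replicate 3. Higher calls of cytosolic ribosomal proteins were 24 to 27 without Ken control replicate 1 or 3, Ken 38 replicate 1 or 3 or MH control replicate 2. Lower calls of cytosolic ribosomal proteins were 0 to 2 without any 1 of the other 11 libraries. Summed levels were 25990, 22280 and 25530 TPM in Ken control, 24700, 24070 and 24690 TPM in Ken 38, 19450, 17910 and 17670 TPM in MH control and 19830, 20520 and 27210 TPM in MH 38. At 25 °C 98 of the genes were lower and 6 higher in MH than in Ken, and at 38/33 °C 47 were lower and 21 higher. RPL23 (TRINITY_DN45466_c0_g1), a protein of the large subunit taken after its values were seen, stood at 80.8, 66.1 and 83.4 TPM in Ken control and 38.6, 39.4 and 44.7 TPM in Ken 38, against 28.3, 23.8 and 28.2 TPM in MH control and 57, 68 and 64 TPM in MH 38, a difference of 1.95 ± 0.22, adjusted p = 0.000181. RPL23 fell in Ken and rose in MH, and no groups of the same material overlap.

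Respiratory chain and ATP synthase genes of the mitochondrion had 26 (25%) higher and 1 (0.96%) lower responses in MH among 104 tested genes. The counts were 37 (35.6%) and 6 (5.77%) without MH 38 replicate 3. Higher calls of respiration genes were 14 to 17 without Ken control replicate 1 or 3, Ken 38 replicate 1 or 3 or MH control replicate 2 or 3. Lower calls of respiration genes were 0 without Ken 38 replicate 1 or 2. Summed levels were 3016, 2754 and 3147 TPM in Ken control, 1697, 1654 and 1717 TPM in Ken 38, 2578, 2677 and 2433 TPM in MH control and 2260, 2344 and 2258 TPM in MH 38. Every heated Ken library lay below every other library, and the heated MH libraries lay just below their controls. The subunit of complex I encoded by At5g47570 (TRINITY_DN39015_c0_g3) in Arabidopsis, taken after its values were seen, stood at 74.6, 68.2 and 67.1 TPM in Ken control and 16.1, 16.7 and 16.9 TPM in Ken 38, against 98.8, 94.8 and 94.4 TPM in MH control and 44.4, 47.6 and 56.7 TPM in MH 38. It fell in both materials and less in MH, a difference of 1.21 ± 0.21, adjusted p = 0.00244.

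**Figure D4:**
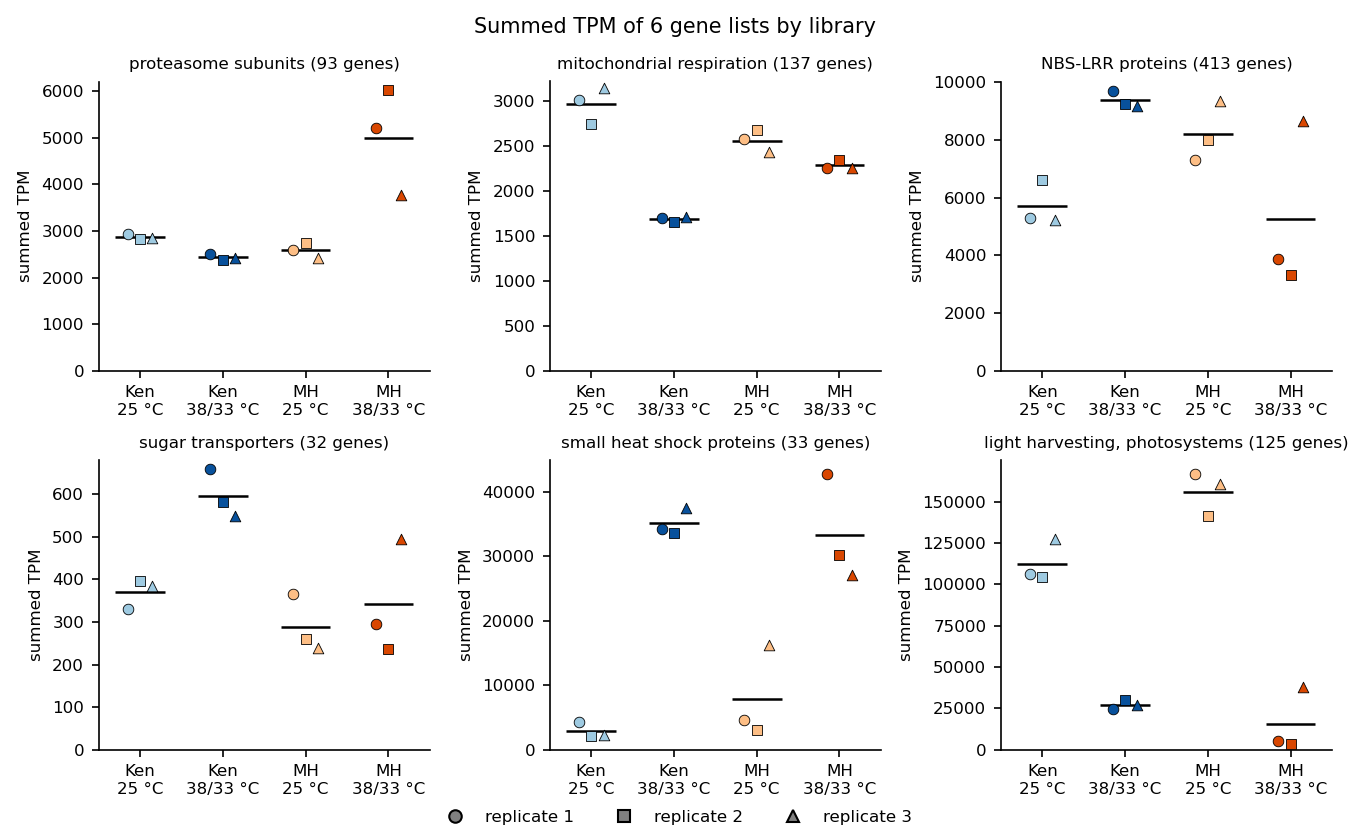
Summed TPM of 6 gene lists in each of the 12 libraries, with the number of genes summed in brackets. Points are libraries, shapes give the replicate and horizontal lines the mean of 3. Proteasome levels rise above all other libraries in heated MH, respiration is lowest in heated Ken, and MH 38/33 °C replicate 3 departs from replicates 1 and 2 for NBS-LRR proteins, sugar transporters and light harvesting.

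Light harvesting showed how much rests on 1 library. Of 96 tested genes 7 (7.29%) had a higher and 2 (2.08%) a lower response in MH with all libraries, and 9 (9.38%) and 55 (57.3%) without MH 38 replicate 3. The median difference was -0.82 and -2.26. Summed levels were 106000, 104400 and 127100 TPM in Ken control, 24540, 29950 and 27260 TPM in Ken 38, 166700, 141200 and 160300 TPM in MH control and 5489, 3569 and 38250 TPM in MH 38. Every heated library lay below the controls of its material, but MH 38 replicate 3 lay above all heated Ken libraries while replicates 1 and 2 lay far below them. The gene of highest level, a chlorophyll a-b binding protein (TRINITY_DN62316_c1_g8), stood at 4010, 5110 and 4680 TPM in Ken 38 and at 276, 84.2 and 6900 TPM in MH 38, and its difference was -1.73 (adjusted p = 0.565) with and -5.55 (adjusted p = 0.000332) without MH 38 replicate 3. What sets this library apart was not tested.

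Of the photosystem genes, the following were named by the rule. PPD7 (TRINITY_DN33766_c0_g1), a PsbP-domain protein of the thylakoid lumen, stood at 11.2, 8.97 and 9.65 TPM in Ken control and 85.2, 60.5 and 46 TPM in Ken 38, against 13.2, 10.6 and 14.3 TPM in MH control and 17.4, 12.8 and 13.3 TPM in MH 38. Only the heated Ken libraries stand clear of the others, a difference of -2.65 ± 0.31, adjusted p = 0.000222. The transcript described as psbC (TRINITY_DN49127_c0_g1), the CP43 protein of photosystem II, is matched in the plant database to a ras GTPase-activating protein-binding protein, so its identity is uncertain. It stood at 22.2, 20.4 and 22.4 TPM in Ken control and 40, 35.7 and 37.9 TPM in Ken 38, against 8.47, 5.68 and 5.13 TPM in MH control and 32.3, 35.5 and 32.9 TPM in MH 38, a difference of 1.43 ± 0.25, adjusted p = 0.0024. It rose in MH, and its Ken response of 0.28 was 0.85 and called as a rise with library totals. PNSB1 (TRINITY_DN61320_c0_g2), a subunit of the chloroplast NDH complex, stood at 150.5, 158 and 162 TPM in Ken control and 2.19, 0.94 and 3.62 TPM in Ken 38, against 73.6, 86.8 and 83.1 TPM in MH control and 8.74, 10.7 and 17.3 TPM in MH 38. It fell in both materials, and further in Ken, a difference of 3.15 ± 0.27, adjusted p = 3.23e-05.

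Calvin cycle genes differed in 5 (12.8%) of 39 tested members, all with the higher response in MH and near the share of described genes, and without MH 38 replicate 3 there were 5 (12.8%) higher and 9 (23.1%) lower. Lower calls of Calvin cycle genes, 0 with edgeR, were 1 with DESeq2, 9 with voom and 1 at an unadjusted p below 0.05. RPI3 (TRINITY_DN34038_c0_g1), a ribose-5-phosphate isomerase, stood at 35.5, 36.4 and 40.6 TPM in Ken control and 2.28, 1.65 and 1.84 TPM in Ken 38, against 37, 39.5 and 37.8 TPM in MH control and 4.99, 5.16 and 5.13 TPM in MH 38. The materials were not called different at the control temperature and the heated MH level was above the heated Ken level, a difference of 1.22 ± 0.2, adjusted p = 0.00147. Chlorophyll synthesis had 2 (5.26%) higher and 4 (10.5%) lower calls among 38 tested genes, against 2 (5.26%) and 21 (55.3%) without MH 38 replicate 3. Higher calls of chlorophyll synthesis genes were 1 without any 1 of the other 11 libraries except Ken 38 replicate 2, MH control replicate 3 and MH 38 replicate 2. CAO (TRINITY_DN60020_c2_g1), the chlorophyllide a oxygenase that makes chlorophyll b, stood at 21.7, 22.1 and 23 TPM in Ken control and 39.2, 37.4 and 39.3 TPM in Ken 38, against 80.3, 102 and 95.8 TPM in MH control and 15.1, 10.5 and 23.1 TPM in MH 38. It fell in MH in all 3 heated libraries and was not called in Ken, a difference of -3.52 ± 0.43, adjusted p = 0.000433, while with library totals the Ken response of 0.28 was 0.85 and called as a rise. PTC52 (TRINITY_DN44839_c1_g2), a protein of the chloroplast envelope linked to protochlorophyllide, stood at 85.5, 73.6 and 74.6 TPM in Ken control and 11.6, 11.3 and 13.2 TPM in Ken 38, against 68.7, 58.2 and 62.1 TPM in MH control and 21.5, 21.2 and 17.4 TPM in MH 38 and fell in both, with a difference of 0.85 ± 0.18, adjusted p = 0.00834.

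Chlorophyll breakdown and senescence genes had 2 (6.67%) higher and 3 (10%) lower calls among 30 tested genes, and 4 (13.3%) higher and 9 (30%) lower without MH 38 replicate 3. Higher calls of chlorophyll breakdown genes were 0 to 1 without any 1 of the other 11 libraries except MH control replicate 1. Lower calls of chlorophyll breakdown genes were 1 without Ken control replicate 1, Ken 38 replicate 2 or 3, MH control replicate 1, 2 or 3 or MH 38 replicate 1. PAO (TRINITY_DN60056_c0_g4), the pheophorbide a oxygenase that opens the chlorophyll ring, stood at 47.8, 46.8 and 36.7 TPM in Ken control and 92.8, 79.4 and 88.5 TPM in Ken 38, against 20.7, 13.8 and 13.7 TPM in MH control and 106, 148 and 48.8 TPM in MH 38, a difference of 1.47 ± 0.41, adjusted p = 0.0304 and of 1.79 (adjusted p = 6.89e-06) without MH 38 replicate 3. Its heated MH libraries span the heated Ken range, and its Ken response of 0.52 was 1.09 and called as a rise with library totals. The difference was called in 16 of 26 alternatives, and not (adjusted p = 0.0548 to 0.072) without any 1 of the other 11 libraries except Ken control replicate 3 and MH control replicate 1. The cysteine protease described as oryzain alpha chain and as senescence-associated (TRINITY_DN49755_c0_g3) stood at 26, 25.8 and 25.9 TPM in Ken control and 148, 138 and 138 TPM in Ken 38, against 20.6, 23.8 and 17.5 TPM in MH control and 35.3, 43 and 25.4 TPM in MH 38. Heated Ken exceeded every other library, a difference of -1.87 ± 0.24, adjusted p = 0.000415, and the MH response of 0.1 was 0.88 and called as a rise with library totals. Another cysteine protease, cathepsin B (TRINITY_DN34762_c1_g2), stood at 255, 268 and 261 TPM in Ken control and 1313, 1195 and 1136 TPM in Ken 38, against 498, 447 and 344 TPM in MH control and 377, 462 and 398 TPM in MH 38, with a difference of -2.36 ± 0.21, adjusted p = 4.52e-05. It rose in Ken, and its MH response of -0.74 was 0.03 and not called with library totals.

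Antioxidant enzymes, which remove hydrogen peroxide and superoxide, had 11 (16.9%) higher and 1 (1.54%) lower responses in MH among 65 tested genes, and 16 (24.6%) and 12 (18.5%) without MH 38 replicate 3. Lower calls of antioxidant enzymes were 2 without MH control replicate 1. GPX5 (TRINITY_DN37528_c0_g3), a glutathione peroxidase, stood at 27.5, 27.4 and 28.4 TPM in Ken control and 20.6, 15.7 and 17.1 TPM in Ken 38, against 15.7, 16.7 and 16.3 TPM in MH control and 41.1, 41.1 and 30.3 TPM in MH 38. GPX5 fell in Ken and rose in MH, a difference of 1.7 ± 0.21, adjusted p = 0.000328. APX4 (TRINITY_DN52505_c0_g3), an ascorbate peroxidase, stood at 117, 94.5 and 99.7 TPM in Ken control and 17.5, 19 and 17.4 TPM in Ken 38, against 172, 107 and 98.7 TPM in MH control and 78.7, 74.1 and 84.3 TPM in MH 38. It fell in both materials and less in MH, a difference of 1.69 ± 0.28, adjusted p = 0.00189. Class III peroxidases, the secreted enzymes that cross-link cell walls, went the other way, with 6 (27.3%) lower and 0 higher calls among 22 tested genes and a median difference of -1.73. Leaving out MH 38 replicate 3 gave 2 (9.09%) higher and 9 (40.9%) lower. Higher calls of class III peroxidases, 0 with edgeR, were 0 with DESeq2, 1 with voom and 1 at an unadjusted p below 0.05. PER12 (TRINITY_DN57997_c1_g1), taken after its values were seen, stood at 44.3, 39.3 and 30.1 TPM in Ken control and 327, 331 and 373 TPM in Ken 38, against 62, 72.4 and 91.4 TPM in MH control and 80.5, 77.8 and 113 TPM in MH 38, a difference of -3.08 ± 0.27, adjusted p = 3.23e-05. PER12 rose in Ken and was not called in MH, where the groups overlap.

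Glutathione S-transferases, which join glutathione to reactive compounds, were called in both directions, 9 (25.7%) higher and 4 (11.4%) lower of 35, and 12 (34.3%) higher and 6 (17.1%) lower without MH 38 replicate 3. Lower calls of glutathione S-transferases were 2 without Ken control replicate 3. Flavonoid and anthocyanin enzymes had 6 (7.5%) higher and 8 (10%) lower calls of 80, and 9 (11.2%) and 32 (40%) without MH 38 replicate 3. Higher calls of flavonoid enzymes were 3 without Ken control replicate 1, 2 or 3, MH control replicate 3 or MH 38 replicate 2. Lower calls of flavonoid enzymes were 5 without Ken 38 replicate 2 or MH control replicate 3. GT4 (TRINITY_DN41200_c0_g2), named as an anthocyanidin glucosyltransferase but in its plant entry as a scopoletin glucosyltransferase, stood at 49.8, 52 and 44.7 TPM in Ken control and 10.5, 11 and 17.4 TPM in Ken 38, against 13.7, 15.3 and 10.4 TPM in MH control and 16.4, 16.6 and 7.42 TPM in MH 38. GT4 fell in Ken, a difference of 2.54 ± 0.42, adjusted p = 0.00176, and with library totals the MH response of 0.55 was 1.34 and called as a rise. CYP81D11 (TRINITY_DN55671_c0_g4), a cytochrome P450 of a family that hydroxylates isoflavones in legumes, stood at 4.63, 3.22 and 4.07 TPM in Ken control and 80.4, 60.5 and 46.6 TPM in Ken 38, against 1.17, 0.69 and 0.76 TPM in MH control and 2, 1.24 and 2.58 TPM in MH 38, a difference of -3.11 ± 0.48, adjusted p = 0.00126. Heated Ken lay far above every other library, and the MH response of 0.56 was 1.3 and called as a rise with library totals.

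Phenylpropanoid and lignin enzymes gave 11 (12%) higher and 9 (9.78%) lower calls of 92, close to the shares of described genes, and 15 (16.3%) higher and 19 (20.7%) lower without MH 38 replicate 3. Higher calls of phenylpropanoid enzymes were 4 to 7 without any 1 of the other 11 libraries except Ken 38 replicate 3 and MH control replicate 1 and 2. A caffeoylshikimate esterase (TRINITY_DN52600_c0_g1), which in Arabidopsis forms caffeate for lignin, stood at 12.2, 14.5 and 11.2 TPM in Ken control and 31.9, 29.6 and 30 TPM in Ken 38, against 26.7, 35.3 and 29.8 TPM in MH control and 17.9, 19.1 and 17.1 TPM in MH 38. It rose in Ken and fell in MH, and the order of the materials was reversed between the temperatures, a difference of -2.08 ± 0.19, adjusted p = 5.58e-05. 4CLL7 (TRINITY_DN55347_c1_g1), a relative of 4-coumarate CoA ligase, stood at 5.83, 5.11 and 5.1 TPM in Ken control and 31.7, 24.7 and 25.2 TPM in Ken 38, against 30.7, 25.4 and 32.6 TPM in MH control and 48.5, 43.7 and 33.4 TPM in MH 38. Ken rose to the level that MH controls already had, a difference of -2.01 ± 0.24, adjusted p = 0.000272, and the MH response of -0.12 was 0.66 and called as a rise with library totals.

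Among the 5 terpene synthases tested, 1 was called. It is a nerolidol synthase transcript (TRINITY_DN34879_c3_g1) with 0, 0 and 0 TPM in Ken control, 2.15, 3.09 and 4.61 TPM in Ken 38, 0.07, 0 and 0 TPM in MH control and 0.1, 0.07 and 0.2 TPM in MH 38. The call was lost without MH control replicate 1 (adjusted p = 1). Set against a floor of 3 counts per library in Ken control, and with MH control at its listed level, the response difference was at least as far below 0 as -3.73 (adjusted p = 0.0141). That MH control level rests on replicate 1 alone, and a lower level there would make the value less negative. The highest-level terpene synthase, an alpha-terpineol synthase (TRINITY_DN52761_c0_g5), stood at 3020, 2180 and 1840 TPM in Ken control and 0.72, 0.74 and 0.26 TPM in Ken 38, against 62.4, 57.2 and 27.3 TPM in MH control and 0, 0.07 and 0.02 TPM in MH 38, and its response difference was not called (adjusted p = 0.423).

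Raffinose, galactinol and trehalose synthesis, which makes protective sugars under stress, had 7 (20%) higher and 5 (14.3%) lower responses in MH among 35 tested genes, and 14 (40%) and 6 (17.1%) without MH 38 replicate 3. Higher calls of raffinose and related genes were 4 without Ken control replicate 2 or 3, Ken 38 replicate 1 or 2, MH control replicate 3 or MH 38 replicate 2. Lower calls of raffinose and related genes were 3 without Ken control replicate 1 or 3, Ken 38 replicate 1 or 2 or MH control replicate 1 or 2. The median difference was 1.21, while its 2 non-overlapping genes with the smallest adjusted p had the lower response in MH. RFS2 (TRINITY_DN56641_c1_g1), a probable raffinose synthase, stood at 6.49, 10.8 and 8.09 TPM in Ken control and 277, 235 and 272 TPM in Ken 38, against 47.6, 21.6 and 37.7 TPM in MH control and 80.7, 69.8 and 246 TPM in MH 38. Heated Ken libraries lay close together, MH 38 replicate 3 reached their range and replicates 1 and 2 did not, and the difference was -3.36 ± 0.57, adjusted p = 0.0038. RFS6 (TRINITY_DN56163_c0_g1), of the same family, stood at 0.46, 0.72 and 0.47 TPM in Ken control and 29.8, 23.5 and 19.8 TPM in Ken 38, against 3, 2.24 and 2.05 TPM in MH control and 16.3, 12.3 and 14.3 TPM in MH 38, with rises in both materials and a difference of -3.04 ± 0.29, adjusted p = 5.58e-05.

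Sugar transporters had 10 (34.5%) lower and 2 (6.9%) higher responses in MH among 29 tested genes, and 15 (51.7%) and 2 (6.9%) without MH 38 replicate 3. Higher calls of sugar transporters were 1 without any 1 of the other 11 libraries except Ken 38 replicate 1, MH control replicate 1 and MH 38 replicate 2. STP13 (TRINITY_DN58944_c0_g3), a plasma membrane importer of hexoses taken after its values were seen, stood at 4.32, 3.7 and 3.89 TPM in Ken control and 82.1, 68.8 and 70.8 TPM in Ken 38, against 27.4, 19.2 and 13.6 TPM in MH control and 53.1, 40.6 and 80.3 TPM in MH 38. It rose in both materials, from a start in Ken below that in MH, a difference of -2.83 ± 0.4, adjusted p = 0.000746. GPT1 (TRINITY_DN40902_c0_g1), a plastid transporter of glucose 6-phosphate that its plant entry names GPT2, went the opposite way and stood at 57.2, 64.4 and 54.8 TPM in Ken control and 18.3, 16.1 and 16.8 TPM in Ken 38, against 13.3, 12.9 and 12.5 TPM in MH control and 26.6, 30.9 and 23.9 TPM in MH 38. It fell in Ken and rose in MH, no group overlaps another, and the difference was 2.59 ± 0.18, adjusted p = 9.96e-06. Starch and sucrose metabolism had 14 (15.7%) higher and 8 (8.99%) lower calls of 89, and 28 (31.5%) higher and 18 (20.2%) lower without MH 38 replicate 3. Higher calls of starch and sucrose genes were 6 to 9 without any 1 of the other 11 libraries except MH control replicate 1 and MH 38 replicate 2. Lower calls of starch and sucrose genes were 3 to 5 without any 1 of the other 11 libraries except Ken control replicate 2 and MH control replicate 1 and 3. AGPS1 (TRINITY_DN54464_c1_g2), a large subunit of the enzyme that makes ADP-glucose for starch and likewise taken after its values were seen, stood at 37.5, 30.7 and 34.4 TPM in Ken control and 2.56, 4.75 and 5.05 TPM in Ken 38, against 5.27, 5.34 and 8.13 TPM in MH control and 12.5, 10.7 and 30.4 TPM in MH 38, a difference of 4.36 ± 0.63, adjusted p = 0.00163. AGPS1 fell in Ken, MH 38 replicate 3 was the highest MH library, and the MH response of 0.87 was 1.61 and called as a rise with library totals.

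Abscisic acid, the hormone of water stress, had 1 (2.94%) higher and 4 (11.8%) lower calls among 34 tested genes, and 2 (5.88%) and 12 (35.3%) without MH 38 replicate 3. Higher calls of abscisic acid genes were 2 without MH control replicate 2. DPBF3 (TRINITY_DN40955_c2_g1), a bZIP factor of the ABI5 group, stood at 6.9, 5.89 and 6.52 TPM in Ken control and 59.5, 54.4 and 53.8 TPM in Ken 38, against 10, 9.61 and 15 TPM in MH control and 22.5, 14.7 and 26.8 TPM in MH 38. Heated Ken lay above all other libraries, a difference of -2.19 ± 0.33, adjusted p = 0.00097, while the MH response of 0.3 was 1.05 and called as a rise with library totals. LEA14-A (TRINITY_DN41009_c0_g2), a late embryogenesis abundant protein, stood at 1.28, 1.69 and 2.07 TPM in Ken control and 124, 135 and 128 TPM in Ken 38, against 14.6, 6.85 and 5.01 TPM in MH control and 116, 96.7 and 121 TPM in MH 38. It rose in both materials to nearly the same level, from a lower start in Ken, a difference of -2.74 ± 0.46, adjusted p = 0.00258.

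Ethylene genes had 8 (32%) lower and 1 (4%) higher calls among 25 tested genes, and 10 (40%) and 4 (16%) without MH 38 replicate 3. Higher calls of ethylene genes were 2 without Ken 38 replicate 1. Lower calls of ethylene genes were 5 without Ken control replicate 1 or 3, Ken 38 replicate 1 or 2 or MH 38 replicate 1. ERS1 (TRINITY_DN39825_c2_g1), an ethylene receptor, stood at 12.6, 12.3 and 13 TPM in Ken control and 60.7, 48 and 53.8 TPM in Ken 38, against 13.7, 14.1 and 12.3 TPM in MH control and 19.8, 15.5 and 22.7 TPM in MH 38. The control levels of the materials were not called different and the heated Ken libraries stood above all others, a difference of -1.65 ± 0.28, adjusted p = 0.00219. EBF1 (TRINITY_DN61174_c0_g2), the F-box protein that marks the factor EIN3 for degradation, stood at 36.8, 35.2 and 31.2 TPM in Ken control and 126, 118 and 76.5 TPM in Ken 38, against 56.3, 55.6 and 53.9 TPM in MH control and 87.1, 69.7 and 82.8 TPM in MH 38, a difference of -1.53 ± 0.25, adjusted p = 0.00164. For ERS1 and EBF1 the MH responses of 0.03 and -0.32 were 0.79 and 0.45 with library totals and then called as rises. ERF1B (TRINITY_DN58901_c1_g4), a transcription factor switched on by ethylene and jasmonate, stood at 0, 0.21 and 0 TPM in Ken control and 13.5, 7.52 and 6.27 TPM in Ken 38, against 5.86, 16.3 and 11 TPM in MH control and 1.52, 1.59 and 1.37 TPM in MH 38. It rose in Ken from near 0 and fell in MH, with an adjusted p of 0.000108 for the difference. The AP2/ERF family, to which ERF1B belongs, had 16 (21.6%) lower and 5 (6.76%) higher calls of 74, and 33 (44.6%) and 11 (14.9%) without MH 38 replicate 3.

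Auxin genes had 7 (6.67%) higher and 10 (9.52%) lower calls among 105 tested genes, and 7 (6.67%) and 48 (45.7%) without MH 38 replicate 3. Higher calls of auxin genes were 4 without Ken control replicate 1 or 2, Ken 38 replicate 1 or 3, MH control replicate 2 or 3 or MH 38 replicate 1. Lower calls of auxin genes were 4 to 6 without Ken control replicate 2 or 3, Ken 38 replicate 1 or 2 or MH control replicate 2. IAA16 (TRINITY_DN40602_c1_g1), a repressor of auxin responses, stood at 31.4, 32.2 and 28.1 TPM in Ken control and 29.2, 29.6 and 29.4 TPM in Ken 38, against 67.9, 101 and 101 TPM in MH control and 18.3, 18.2 and 16.1 TPM in MH 38. It fell in MH, and its Ken response of -0.53 was 0.04 and not called with library totals, while the difference was -2.47 ± 0.22, adjusted p = 4.32e-05. ARF11 (TRINITY_DN53750_c0_g1), an auxin response factor, stood at 1.91, 2.9 and 2.2 TPM in Ken control and 4.31, 6.28 and 5.27 TPM in Ken 38, against 0, 0.14 and 0 TPM in MH control and 82.9, 111 and 4.45 TPM in MH 38. MH control held no more than 3 counts in all, so the fitted difference depends on the prior count and is no measure of size. MH 38 replicates 1 and 2 were high, replicate 3 was inside the Ken range, and the adjusted p was 0.00585. Jasmonate genes had 4 (9.76%) higher and 3 (7.32%) lower calls of 41, and 5 (12.2%) higher and 10 (24.4%) lower without MH 38 replicate 3. Lower calls of jasmonate genes were 1 without Ken control replicate 1 or 3 or Ken 38 replicate 2.

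Clock genes, whose transcripts cycle over the day, had 9 (34.6%) lower and 3 (11.5%) higher responses in MH among 26 tested genes, and 12 (46.2%) and 7 (26.9%) without MH 38 replicate 3. LHY (TRINITY_DN63222_c1_g3) and CCA1 (TRINITY_DN51203_c0_g1) are closely related morning factors of the core clock. LHY stood at 14.9, 9.5 and 16.3 TPM in Ken control and 113, 118 and 112 TPM in Ken 38, against 41.3, 58 and 29.5 TPM in MH control and 47.1, 49.2 and 72 TPM in MH 38. CCA1 stood at 12.1, 11.5 and 13.8 TPM in Ken control and 91, 80.8 and 76 TPM in Ken 38, against 46.6, 54.4 and 31.3 TPM in MH control and 44.7, 39.4 and 57.6 TPM in MH 38. Both were low in Ken control and high in Ken 38, and in MH the groups overlap, with differences of -2.64 ± 0.28, adjusted p = 0.000127 for LHY and -2.81 ± 0.3, adjusted p = 0.000125 for CCA1. The MH response of LHY, -0.22, was 0.54 and called as a rise with library totals. Because the hour of sampling is not given, a difference in heat response and a difference in time of day cannot be told apart for these genes.

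**Figure D5:**
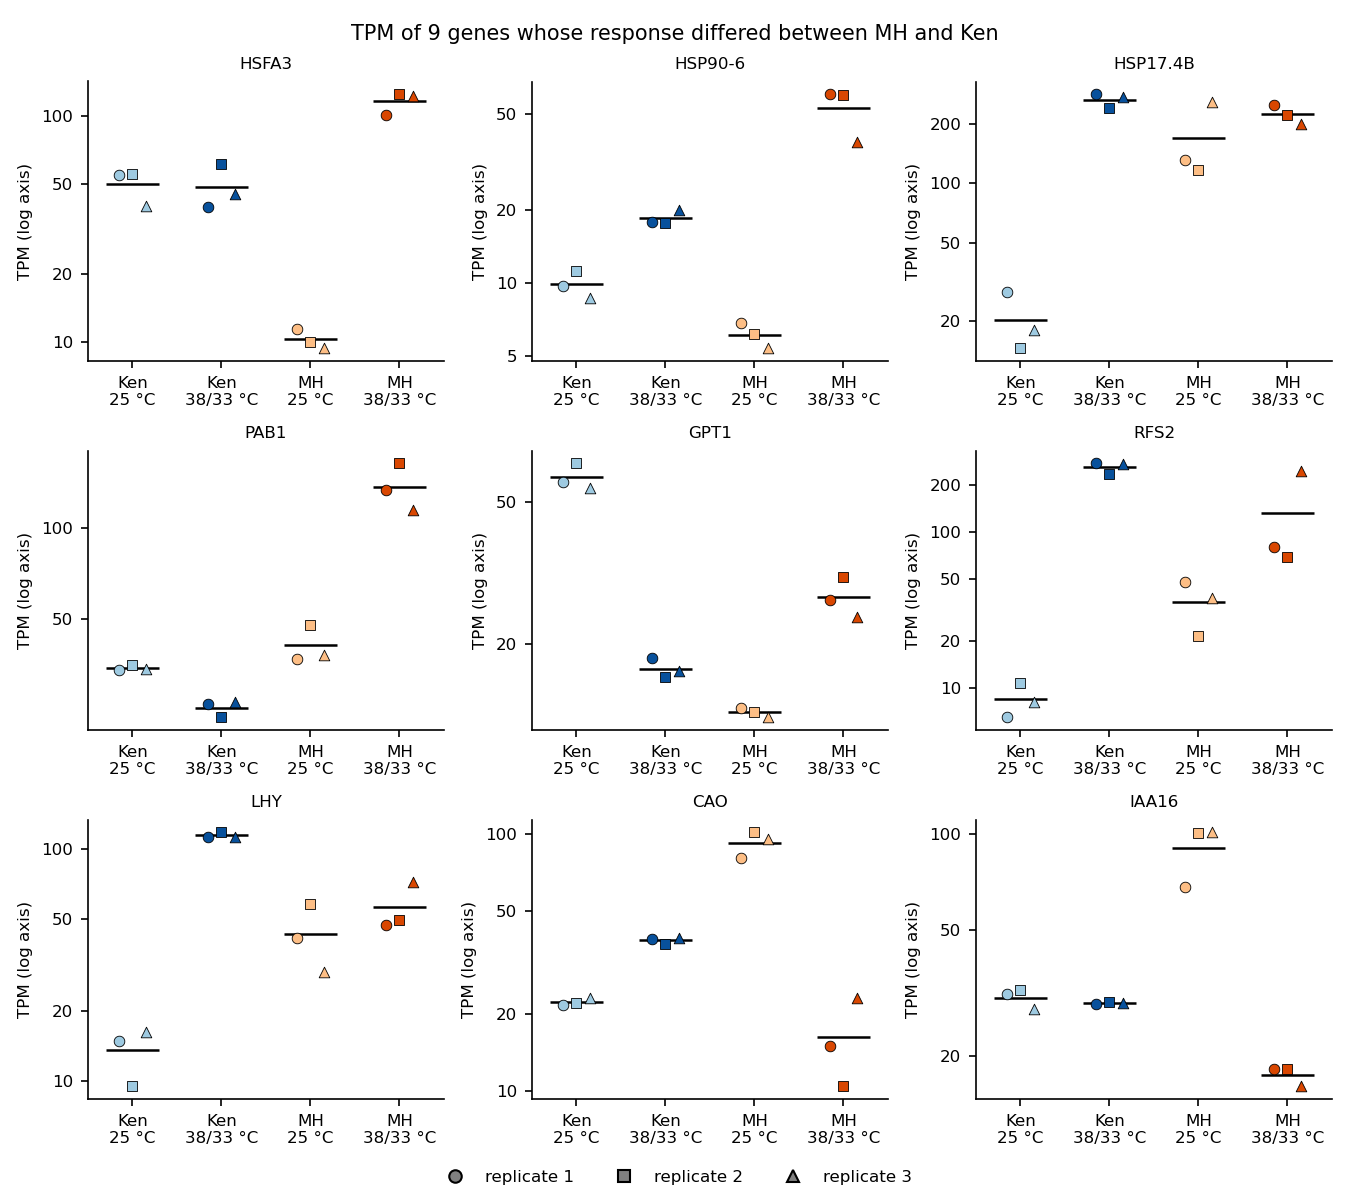
TPM of 9 genes in the 12 libraries, on log axes. Points are libraries, shapes give the replicate and horizontal lines the mean of 3. HSFA3, HSP90-6 and PAB1 end highest in heated MH; HSP17.4B, RFS2 and LHY rise steeply in Ken from a low control; GPT1 falls in Ken and rises in MH; CAO and IAA16 fall in MH.

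Disease resistance genes of the NBS-LRR class, intracellular receptors that detect pathogen proteins, had mostly lower responses in MH among the calls. Of 369 tested genes 73 (19.8%) had a lower and 2 (0.54%) a higher response, against 8.02% and 10.9% of described genes, and the median difference was -1.12. Without MH 38 replicate 3 the counts were 194 (52.6%) and 6 (1.63%). Higher calls of NBS-LRR genes were 1 without Ken control replicate 2. Lower calls of NBS-LRR genes were 48 without Ken 38 replicate 1 or 2. With 1 gene per description 15 of 78 were lower and 0 higher. Summed levels were 5285, 6601 and 5233 TPM in Ken control, 9702, 9239 and 9187 TPM in Ken 38, 7309, 7998 and 9334 TPM in MH control and 3869, 3317 and 8645 TPM in MH 38. Heated Ken exceeded its controls in every library, MH 38 replicates 1 and 2 lay below every control, and MH 38 replicate 3 lay within the range of MH control. In Ken 123 genes rose and 31 fell, and in MH 24 rose and 119 fell. With library totals 82 rose and 53 fell in MH, so the balance in MH depends on the scaling.

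Examples taken after their values were seen show both directions. RPP13L3 (TRINITY_DN64089_c6_g1) stood at 18.1, 19.6 and 20.8 TPM in Ken control and 72.8, 75.1 and 68.5 TPM in Ken 38, against 15.3, 16.2 and 17.4 TPM in MH control and 4.49, 4.37 and 8.89 TPM in MH 38. RPP13L3 rose in Ken and fell in MH, a difference of -3.64 ± 0.35, adjusted p = 5.66e-05. RPPL1 (TRINITY_DN51703_c0_g1), 1 of the 2 members with the higher response, stood at 3.33, 2.71 and 2.77 TPM in Ken control and 0.39, 0.38 and 0.65 TPM in Ken 38, against 1.03, 1.07 and 1.67 TPM in MH control and 8.57, 9.59 and 12.7 TPM in MH 38, a difference of 5.84 ± 0.46, adjusted p = 2.23e-05. Sequences of these receptors are similar to each other, and reads shared between them cannot be separated. Pathogenesis-related proteins and chitinases had 7 (9.59%) higher and 12 (16.4%) lower calls of 73, and 10 (13.7%) and 29 (39.7%) without MH 38 replicate 3. Higher calls of pathogenesis-related genes were 2 to 4 without any 1 of the other 11 libraries except MH control replicate 2. A thaumatin-like protein (TRINITY_DN61322_c2_g2), of a family with antifungal members, stood at 66.4, 71 and 67.4 TPM in Ken control and 8.46, 5.99 and 4.05 TPM in Ken 38, against 0.93, 1.51 and 0 TPM in MH control and 90.2, 68.2 and 3.97 TPM in MH 38. It fell in Ken and rose in MH, with MH 38 replicate 3 near the level of heated Ken, and the adjusted p was 0.00346. The WRKY factors, many of which act in defence, had 6 (14.3%) higher and 2 (4.76%) lower calls of 42, and the NAC factors 7 (12.1%) and 6 (10.3%) of 58. Leaving out MH 38 replicate 3 gave 8 (19%) higher and 8 (19%) lower for WRKY and 12 (20.7%) higher and 16 (27.6%) lower for NAC, of which both WRKY shares and the higher NAC share are near those of described genes.

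Aquaporins, which let water through membranes, had 7 (19.4%) lower and 4 (11.1%) higher calls of 36, and 20 (55.6%) and 4 (11.1%) without MH 38 replicate 3. Lower calls of aquaporins were 4 without Ken control replicate 2 or 3 or Ken 38 replicate 2. PIP2-7 (TRINITY_DN57128_c0_g1), a plasma membrane aquaporin taken after its values were seen, stood at 69.3, 81.3 and 71.5 TPM in Ken control and 121, 116 and 101 TPM in Ken 38, against 80.5, 150 and 153 TPM in MH control and 31.5, 24.9 and 72.4 TPM in MH 38, a difference of -2.94 ± 0.41, adjusted p = 0.000791. It fell in MH, where replicate 3 stayed highest, and its Ken response of 0.35 was 0.92 and called as a rise with library totals. Cell wall loosening and pectin enzymes had 16 (11.9%) lower and 9 (6.72%) higher calls of 134, and 52 (38.8%) and 11 (8.21%) without MH 38 replicate 3. Cuticle wax and cutin genes had 4 (4.21%) lower and 2 (2.11%) higher calls of 95, below the shares of described genes with all 12 libraries, and 12 (12.6%) higher and 27 (28.4%) lower without MH 38 replicate 3. Lower calls of cuticle genes were 2 without Ken control replicate 2 or 3, Ken 38 replicate 1, 2 or 3 or MH control replicate 2 or 3.

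The markers of epidermis and guard cells had 3 (17.6%) lower and 0 higher calls among 17 tested genes, and 9 (52.9%) and 0 without MH 38 replicate 3. Higher calls of epidermis and guard cell markers, 0 with edgeR, were 0 with DESeq2, 0 with voom and 1 at an unadjusted p below 0.05. Their summed levels were 219.9, 281 and 208 TPM in Ken control, 254, 272 and 281 TPM in Ken 38, 349.7, 415 and 294 TPM in MH control and 178, 162 and 257 TPM in MH 38. FAMA (TRINITY_DN56563_c0_g6), a factor of guard cell formation, was listed at 1.46, 2.34 and 3.56 TPM in MH control and at 0 TPM in all 3 MH 38 libraries, and at no more than 0.20 TPM in Ken. The part of these cells in other results was not tested. Markers of meristems and flowers had 6 (16.7%) higher and 3 (8.33%) lower calls of 36, and 7 (19.4%) higher and 14 (38.9%) lower without MH 38 replicate 3.

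BURP domain proteins, a plant family with stress-induced members, were few. In all 2 (15.4%) of 13 tested genes had a lower and 1 (7.69%) a higher response in MH, and leaving out MH 38 replicate 3 gave 3 (23.1%) lower and 1 (7.69%) higher. Lower calls of BURP domain proteins were 0 to 1 without any 1 of the other 11 libraries except MH control replicate 1 and MH 38 replicate 1. The gene of highest level (TRINITY_DN54005_c1_g1) stood at 8.48, 8.48 and 5.17 TPM in Ken control and 3310, 2490 and 2570 TPM in Ken 38, against 74.6, 209 and 553 TPM in MH control and 31.6, 14.9 and 1240 TPM in MH 38. Heated Ken lay above every other library, MH 38 replicates 1 and 2 lay below and replicate 3 above the MH controls, and the difference was -7.96 (adjusted p = 0.0396), or -12.11 (adjusted p = 0.000372) without that replicate. It was not called (adjusted p = 0.0572 to 0.0874) without any single Ken library or MH control replicate 2 or 3.

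The largest differences, by the rule of 6 genes in each direction with a mean of at least 10 TPM in 1 group, were genes at or near 0 in at least 1 group. CYP71A1 (TRINITY_DN38332_c4_g2), a cytochrome P450, stood at 20.2, 18.3 and 14.7 TPM in Ken control and 0, 0 and 0 TPM in Ken 38, against 21.4, 11.8 and 3.81 TPM in MH control and 13.1, 15.2 and 20 TPM in MH 38. With a floor of 3 counts per library for the heated Ken libraries, the MH response was at least 4.3 log2 units higher (adjusted p = 0.00102). JMJ25 (TRINITY_DN46947_c1_g2), described as a histone demethylase, stood at 4.03, 3.66 and 2.61 TPM in Ken control and 9.02, 10.3 and 7.91 TPM in Ken 38, against 0, 0 and 0 TPM in MH control and 15.3, 19.1 and 6.12 TPM in MH 38. Against the same floor for MH control its MH response was at least 3.56 log2 units higher (adjusted p = 0.000745). A transcript described only as hypothetical protein CKAN_02013300 (TRINITY_DN39052_c1_g1) was listed at 13.5, 27 and 6.07 TPM in Ken control, at 0 in Ken 38 and in MH control, and at 0, 3 and 0.49 TPM in MH 38, with at least 2.73 log2 units of difference by the floor, and a call lost without MH 38 replicate 2 (adjusted p = 0.0733). A second hypothetical protein, VITISV_000638 (TRINITY_DN63353_c2_g7), stayed at or below 0.11 TPM in both Ken groups and in MH control and stood at 15.4, 21.4 and 0.76 TPM in MH 38 (adjusted p = 0.0151, and 0.0685 without Ken control replicate 3). In this gene, as in the thaumatin-like protein and ARF11, MH 38 replicate 3 lay far below replicates 1 and 2.

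On the lower side, MYB114 (TRINITY_DN55582_c0_g2), of the MYB group that controls anthocyanin in Arabidopsis, stood at 0.04, 0.18 and 0.04 TPM in Ken control and 27.8, 52.9 and 83 TPM in Ken 38, against 2.12, 0 and 0.39 TPM in MH control and 0, 0 and 0.71 TPM in MH 38 (adjusted p = 0.00144). It rose in all 3 heated Ken libraries from near 0, while MH 38 held no more than 3 counts in all, so here too the fitted difference is no measure of size. The stem-specific protein TSJT1-like (TRINITY_DN41678_c0_g1) stood at 0, 0 and 0 TPM in Ken control and 267, 191 and 109 TPM in Ken 38, against 2.12, 1.47 and 1.37 TPM in MH control and 22.8, 6.08 and 6.31 TPM in MH 38. Against a floor of 3 counts per library in Ken control, its difference was at least as far below 0 as -5.8 (adjusted p = 0.00356). ABCG5 (TRINITY_DN58596_c2_g3), a membrane transporter, stood at 0.04, 0.02 and 0.05 TPM in Ken control and 1.73, 1.2 and 1.34 TPM in Ken 38, against 16.7, 26.2 and 25.2 TPM in MH control and 0.29, 0.19 and 2.43 TPM in MH 38 (adjusted p = 0.00206). It fell steeply in MH from a level that Ken never reached. A Kunitz trypsin inhibitor (TRINITY_DN63309_c2_g3), a defence protein against proteases, stood at 0.16, 0 and 0 TPM in Ken control and 1.8, 6.04 and 6.73 TPM in Ken 38, against 135, 112 and 191 TPM in MH control and 2.25, 1.71 and 42.1 TPM in MH 38 (adjusted p = 0.028), with MH 38 replicate 3 apart from replicates 1 and 2. It was called in 19 of 26 alternatives, and not (adjusted p = 0.0572 to 0.0777) without any single Ken control library or Ken 38 replicate 2 or 3. A transcript named vignain (TRINITY_DN36799_c1_g2), after a cysteine protease of seeds, was listed at 62.2, 23.2 and 34.6 TPM in MH control and at or below 0.25 TPM in the 9 other libraries (adjusted p = 0.0407). The difference was called in 16 of 26 alternatives, and not (adjusted p = 0.0516 to 1) without any 1 of the other 11 libraries except Ken 38 replicate 3 and MH control replicate 1 and 2.

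Genes called in opposite directions in the materials were taken by the smallest p. A GTPase activating protein (TRINITY_DN50067_c0_g8), with a C2 calcium-binding domain in its plant entry, stood at 119, 117 and 112 TPM in Ken control and 64.1, 68.7 and 74 TPM in Ken 38, against 13.6, 14.1 and 12.9 TPM in MH control and 54.7, 52.5 and 58.4 TPM in MH 38. It fell in Ken and rose in MH without overlap, a difference of 2.62 ± 0.19, adjusted p = 1.38e-05. CYSC (TRINITY_DN62144_c1_g1), which detoxifies cyanide in the mitochondrion, stood at 141, 165 and 160.3 TPM in Ken control and 42.6, 44.8 and 67.9 TPM in Ken 38, against 0.71, 0.25 and 0.56 TPM in MH control and 3.56, 2.75 and 4.08 TPM in MH 38. It fell in Ken and rose in MH, at far lower levels in MH, a difference of 4.24 ± 0.33, adjusted p = 2.23e-05. A 14-3-3-like protein B (TRINITY_DN51879_c0_g2), of the family that binds phosphorylated proteins, stood at 13.7, 13.6 and 14 TPM in Ken control and 148, 116 and 179 TPM in Ken 38, against 10.5, 10 and 11.6 TPM in MH control and 5.06, 4.52 and 6.6 TPM in MH 38. It rose in Ken and fell in MH, and the controls of the materials were not called different, a difference of -4 ± 0.27, adjusted p = 9.96e-06. A putative RNA-directed DNA polymerase (TRINITY_DN51962_c0_g1), a type of enzyme found in retroelements, stood at 25.1, 21 and 29.8 TPM in Ken control and 277, 228 and 187 TPM in Ken 38, against 42.5, 49.7 and 43.8 TPM in MH control and 19.1, 18.2 and 8.99 TPM in MH 38, a difference of -4.31 ± 0.37, adjusted p = 3.23e-05.

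Some genes moved the same way in both materials but to different extents. HPGT2 (TRINITY_DN51652_c0_g4), which adds galactose to hydroxyproline in cell wall proteins, stood at 78.6, 57.7 and 78.6 TPM in Ken control and 0.9, 0.68 and 0.64 TPM in Ken 38, against 6.81, 5.74 and 3.85 TPM in MH control and 1.22, 1.69 and 0.98 TPM in MH 38. It fell to about the same level in both from a far higher start in Ken, a difference of 4.14 ± 0.34, adjusted p = 2.33e-05. A KAT8 regulatory NSL complex subunit 3 transcript (TRINITY_DN36726_c2_g1) stood at 21.5, 19 and 18.8 TPM in Ken control and 0.71, 0.73 and 0.49 TPM in Ken 38, against 14.4, 17.9 and 9.93 TPM in MH control and 7.58, 9.05 and 10.7 TPM in MH 38, a difference of 4.14 ± 0.36, adjusted p = 3.23e-05. It fell in Ken, and its MH response of -1.26 was -0.5 and not called with library totals. Sulfate transporter 3.1 (TRINITY_DN32776_c0_g1) stood at 0.28, 0.33 and 0.17 TPM in Ken control and 49.9, 49.7 and 59 TPM in Ken 38, against 2.72, 3.96 and 2.27 TPM in MH control and 20.6, 20.9 and 32.3 TPM in MH 38. It rose in both materials, to a higher level in Ken from a lower start, a difference of -4.75 ± 0.41, adjusted p = 3.23e-05.

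Transposable elements are mobile DNA. Of 1376 tested genes for their proteins 107 (7.78%) had a higher and 60 (4.36%) a lower response in MH, below the shares of described genes in both directions, with a median difference of 0.35 and of -0.22 with 1 gene per description. Histone and cell cycle genes gave 11 (9.4%) higher and 2 (1.71%) lower calls of 117, splicing factors 19 (13.9%) and 8 (5.84%) of 137, calcium sensors and kinases 16 (9.94%) and 11 (6.83%) of 161, and chloroplast ribosomal proteins 6 (10%) and 5 (8.33%) of 60. MYB factors had 4 (5.63%) higher and 7 (9.86%) lower calls of 71, and genes of DNA methylation and gene silencing 12 (13.8%) and 5 (5.75%) of 87. Without MH 38 replicate 3 the counts were 192 (14%) higher and 122 (8.87%) lower for transposable element proteins, 24 (20.5%) higher and 18 (15.4%) lower for histones and cell cycle, and 25 (18.2%) higher and 21 (15.3%) lower for splicing factors. They were 28 (17.4%) higher and 36 (22.4%) lower for calcium sensors and kinases, and 7 (11.7%) higher and 19 (31.7%) lower for chloroplast ribosomal proteins. For MYB factors there were 9 (12.7%) higher and 30 (42.3%) lower, and for DNA methylation and silencing 18 (20.7%) higher and 18 (20.7%) lower. Lower calls of splicing factors were 3 to 5 without Ken control replicate 1, Ken 38 replicate 1 or 2 or MH control replicate 3. Lower calls of histone and cell cycle genes were 0 to 1 without any 1 of the other 11 libraries except MH control replicate 1 and MH 38 replicate 1. Higher calls of calcium sensors and kinases were 10 without Ken 38 replicate 1. Lower calls of chloroplast ribosomal proteins were 1 to 3 without any 1 of the other 11 libraries except Ken control replicate 3. Lower calls of MYB factors were 4 without Ken control replicate 1 or 3, Ken 38 replicate 1, MH control replicate 2 or MH 38 replicate 1. Higher calls of DNA methylation and silencing genes were 5 to 7 without Ken control replicate 1 or 3, Ken 38 replicate 1, 2 or 3 or MH 38 replicate 1. Lower calls of DNA methylation and silencing genes were 3 without Ken 38 replicate 2.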

How the data were processed

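RNA sequencing of leaf total RNA was deposited as 1 table of assembled genes with 18 libraries, of which 12 were compared here. Reads were trimmed with cutadapt 1.9, per the submitters' processing notes. For the assembler, the quantifier and the strand setting, no name or version is stated by the labels or the table header. The authors deposited an estimated count and a TPM value for each gene and library. That the second kind of column holds TPM was inferred from its sums. No reference genome was used, and genes are assembled clusters, so reads of paralogs, alleles and fragments cannot be separated.

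Estimated counts were rounded and gave 18,289,312 to 22,867,268 counts per library. Genes were kept by filterByExpr with a minimum count of 10 and a minimum total of 15. edgeR 4.0.16 fitted 1 robust quasi-likelihood model of the 4 groups with TMM factors, and every p-value was adjusted by the Benjamini-Hochberg method over all 52,521 tested genes. TPM was used for levels and in no test. Shares of TPM are given as the lowest and highest library of a group, with no counting interval, since TPM is not a count. limma 3.58.1, DESeq2 1.42.0, library totals, other filters, replicate blocks and leaving out each library served as alternatives. The software was R 4.3.3, Python 3.11.15, pandas 2.3.3 and matplotlib 3.10.9, and the model was checked on simulated counts.

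Gene lists were drawn by text patterns in the descriptions. The lists, the members named and the tests were chosen with earlier results of these data known, and lists are described by counts and medians, with no test of a list. Genes were named by a rule among called genes whose MH and Ken responses do not overlap. It took the 2 with the smallest adjusted p from each of 18 core lists, the 6 largest differences in each direction with a mean of at least 10 TPM in 1 group, and 3 in each direction with opposite and with same-direction responses. Further genes, from the other lists and beyond the first 2 of a core list, were taken from those with the smallest adjusted p after values were seen. The gene of highest level was named in some lists.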

Additional observations from a re-analysis of the deposited data

Results flagged for a closer look

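The difference between the responses of MH and Ken was itself the test, so every gene named by the rule is listed here with its response difference in log2 units. The test called 4068 genes with a higher and 3237 with a lower response in MH. Groups of 3 libraries are too small for the test of a single distant library used in larger groups.

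Among genes of the core lists with a higher response in MH, the differences were 2.03 for HSP90-6 (TRINITY_DN57096_c1_g1), 1.74 for HSP90-6 (TRINITY_DN56007_c0_g3), 3.49 for HSFA3, 1.43 for HSFA1, 1.68 for the Clp protease adapter, 1.01 for CLPP4, 1.43 for psbC, 0.85 for PTC52, 1.47 for PAO, 1.22 for RPI3, 1.42 for CPN60B1, 1.70 for GPX5, 1.69 for APX4 and 2.54 for GT4. Those with a lower response in MH were -3.65 for HSP17.4B, -1.68 for HSP18.2, -2.34 for the HSP70 cognate, -2.23 for MED37C, -1.87 for PDIL1-5, -1.22 for HRD1, -2.65 for PPD7, -3.52 for CAO and -1.87 for the oryzain alpha chain. Further ones were -3.11 for CYP81D11, -2.08 for caffeoylshikimate esterase, -2.01 for 4CLL7, -3.04 for RFS6, -3.36 for RFS2, -2.19 for DPBF3, -2.74 for LEA14-A, -1.53 for EBF1, -1.65 for ERS1, -2.81 for CCA1 and -2.64 for LHY.

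Among the other named genes with counts in every group, the differences on the higher side were 10.48 for the thaumatin-like protein, 8.38 for VITISV_000638, 2.59 for GPT1, 2.62 for GTPase activating protein 1, 4.24 for CYSC, 4.14 for HPGT2, 3.15 for PNSB1 and 4.14 for the KAT8 regulatory subunit. On the lower side they were -9.98 for ABCG5, -9.47 for ERF1B, -4 for 14-3-3-like protein B, -4.31 for the putative RNA-directed DNA polymerase, -2.36 for CTSB, -4.75 for sulfate transporter 3.1 and -2.47 for IAA16.

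In the remaining genes at least 1 group had no counts or 1 to 3 counts, so these fitted differences depend on the prior count and are no bound. They were -8.80 for nerolidol synthase, 12.13 for CKAN_02013300, 8.67 for CYP71A1, 8.44 for JMJ25, 8.39 for ARF11, -12.08 for MYB114, -10.72 for vignain, -10.72 for TSJT1-like protein and -9.62 for the Kunitz inhibitor. The 58 named genes kept their sign in every alternative that gave them a value, which their choice among called genes of the same libraries largely fixed.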

How the results depend on the processing

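The 58 named genes kept their direction under every alternative that gave them a value (DESeq2 and a filter at 50 counts each gave 57). They were chosen among called genes of these same libraries, which largely fixed that outcome, so it is no measure of robustness. Between 0 and 3 lost the call when 1 library was left out, 6 at an adjusted p below 0.01 and 9 with a replicate block by library number. The count of calls over all genes moved widely. Against 7,305 genes (4,068 higher, 3,237 lower), limma voom with quality weights called 18,932 (9,118 and 9,814), an adjusted p below 0.01 called 2,751 (1,530 and 1,221), and leaving out MH 38 replicate 3 with MH control replicate 3 gave 15,698 (7,295 and 8,403). Leaving out 1 library at a time gave 4,592 to 15,929 (higher 2,522 to 7,340, lower 2,070 to 8,589), the lowest without Ken 38 replicate 1 and the highest without MH 38 replicate 3, and 2,073 lower calls without Ken 38 replicate 2. DESeq2 called 10,892. The cause was not tested. Library totals gave 8,156 (5,462 and 2,694), which moved the share of higher calls from 55.7% to 67.0%, from 56.1% to 80.1% for MH heat, from 52.8% to 73.7% for Ken heat, and from 52.2% to 64.9% between materials at 38/33 °C.

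The labels do not say that replicate numbers pair the libraries. The deviations of 18 pairs with the same replicate number in their titles correlated between -0.138 and 0.062, with 0 above 0.1. No such range was drawn up for pairs with the same library number, so these values cannot decide whether libraries were paired. A replicate block over the 4 groups called 6,173 genes, a replicate block within material 5,517, and a replicate block by library number 2,293 (1,131 and 1,162). Replicates 1, 2 and 3 carry library numbers 2, 3 and 6 in MH 38 and 3, 5 and 6 in MH control. In the block by library number, set within each material, MH heat thus rested on numbers 3 and 6 only. MH 38 replicate 3 is the library with number 6. The replicate block by library number called 14,265 genes for MH heat, 799 between the controls and 5,093 between materials at 38/33 °C, and the replicate block within material 4,522 and 7,437 for the last pair.

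For the other contrasts, described genes alone gave 14,763 calls for MH heat, 14,149 for Ken heat, 8,211 between controls and 10,100 at 38/33 °C, by construction over fewer genes. An adjusted p below 0.01 gave 8,509 between controls and 11,426 at 38/33 °C, and voom 30,773 at 38/33 °C. Leaving out 1 library at a time gave 21,960 to 31,359 for MH heat, 19,433 to 28,281 for Ken heat, 11,162 to 20,242 between controls and 13,993 to 25,919 at 38/33 °C. Each highest count came without MH 38 replicate 3, which is in neither the Ken heat nor the control contrast. The model estimates spread over all 4 groups together, so these ranges are not the spread of the compared libraries alone. Depth limits genes with 0 to 3 counts in a group, whose differences are bounds or depend on the prior count.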
